A study of Homo sapiens with 1 sample.

Results

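The miRNAs described here were 4 that are linked to endocrine and secretory cells, listed on the array as hsa-miR-375, hsa-miR-7-5p, hsa-miR-7-1-3p and hsa-miR-7-2-3p. They were taken by name from the 2549 human miRNAs on 1 Agilent microRNA microarray, and all 4 names were found. The array was hybridised with total RNA of the human colorectal carcinoma line DLD-1 after transfection with an siRNA that serves as negative control (si-NC), and there was 1 such array. The study around it asked how circLONP2, the circular transcript of LONP2, acts in metastasis, and read miRNA levels after its depletion or its overexpression. The knockdown and overexpression arrays were not analysed here. No groups were compared and no p-value was computed. Every error below is technical, either the SD over replicate spots of 1 array or the error given by the scanner software. RNA of all cells was pooled, so a signal from few cells and a low level in every cell cannot be told apart.

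Each miRNA is released from one side, or arm, of a folded precursor (the hairpin) and finds its target mRNAs mainly by its seed, bases 2 to 8. MiR-375 was described first in pancreatic islets, where it restrains insulin secretion, and it is also made by secretory cells of the gut. MiR-7-5p is abundant in islets, pituitary and brain, and is best known for its many binding sites on the circular RNA CDR1-AS. Its mature sequence is encoded by the hairpins MIR7-1, MIR7-2 and MIR7-3 on different chromosomes. Since the 5p arm is the same from each hairpin, only the opposite 3p arm, which differs between them, can tell which hairpin was read.

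The mature sequences were compared here, without those of the probes, and are shown first. They are given 5′ to 3′ as in RefSeq (GRCh38.p14), with the seed in capitals.
miR-375: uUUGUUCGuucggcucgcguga
miR-7-5p: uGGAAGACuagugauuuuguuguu
miR-7-1-3p: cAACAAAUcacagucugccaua
miR-7-2-3p: cAACAAAUcccagucuaccuaa

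The array names miR-375 without an arm, and RefSeq lists the same miRNA as miR-375-3p. It is encoded at chr2:219001648-219001669 on the minus strand. MiR-7-1-3p lies at chr9:83969771-83969792 on the minus strand, in the hairpin MIR7-1 inside the gene HNRNPK, which encodes an RNA-binding protein expressed in most cells. MiR-7-2-3p lies at chr15:88611896-88611917 on the plus strand, where the annotation of MIR7-2 overlaps the gene AEN. The hairpin MIR7-3 lies on chromosome 19 inside the long noncoding RNA gene MIR7-3HG. Among the 2249 array miRNAs matched by name to a RefSeq sequence, 0 others shared the seed of miR-375 or of miR-7-5p, and the seed AACAAAU was found in miR-7-1-3p and miR-7-2-3p alone.

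The hairpins MIR7-2 and MIR7-3 are printed to show why the 5p arm is silent about its origin. The reference used held no hairpin sequence for MIR7-1, though it lists mature miR-7-5p at MIR7-1 and MIR7-3. Capitals mark the 24 bases of miR-7-5p, which matched both printed hairpins with 0 differences.
MIR7-2: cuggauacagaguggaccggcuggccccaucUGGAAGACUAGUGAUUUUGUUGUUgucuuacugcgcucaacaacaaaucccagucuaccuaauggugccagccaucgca
MIR7-3: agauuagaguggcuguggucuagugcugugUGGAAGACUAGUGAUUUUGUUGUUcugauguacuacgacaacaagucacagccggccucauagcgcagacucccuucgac

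The 3p sides differ, and the lines below set the 3 of them against each other, with capitals at the bases that differ from miR-7-1-3p (in its own line, from miR-7-2-3p).
miR-7-1-3p: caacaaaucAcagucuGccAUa
miR-7-2-3p: caacaaaucCcagucuAccUAa
MIR7-3 stretch: caacaaGucacagCcGgccUCa

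Counted from 1 at the 5′ end of miR-7-1-3p, miR-7-2-3p carries 4 differences in 22 bases, A10C, G17A, A20U and U21A. The best matching stretch of MIR7-3 carries 5 differences, A7G, U14C, U16G, A20U and U21C, and A7G falls within the seed. No array name stood for that MIR7-3 stretch, so the array reads the 3p side of MIR7-1 and MIR7-2 and leaves MIR7-3 unread.

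By the detection flag of the scanner, 3 of the 4 miRNAs were detected, against 44.4% of all miRNAs on the array. MiR-375, miR-7-5p and miR-7-1-3p were detected and miR-7-2-3p was not. The same 3 were called under stricter rules. These asked for 50% of the spots of 1 probe over background (37.9% of all miRNAs), for a median spot past the 99th percentile of the negative controls (31%), or for 50% of the spots of each probe over background (29.4%). The 4 miRNAs had 80 spots from 10 probes. For the 3 detected miRNAs, 20 of 20 spots each were well above background, and for miR-7-2-3p it was 0 of 20. None of the 80 spots was saturated, and 3 of them, all dim for their probe, carried the outlier flag of the software.

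The 20 spots of miR-7-5p had background-subtracted signals from 5884 to 8894, with a median of 7370. The dimmer of its 2 probes had a mean of 6390 ± 291 (SD, 10 spots) and the brighter a mean of 8623 ± 198.8 (SD, 9 spots, with 1 outlier spot at 7996 left out). The spots of both probes did not overlap. The median pixel signal was 506 times the local background for the dimmer probe and 705 times for the brighter one. The total gene signal, which the software sums over the probes of a miRNA on a smaller scale than single spots, was 2746 ± 196 (error from the scanner software).

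MiR-7-1-3p, the opposite arm of the HNRNPK hairpin, was also plainly above background. Its 20 spots ran from 599 to 1065 with a median of 836. The probe means were 721 ± 26.0 and 1031 ± 24.7 (SD, 9 spots each), after 1 outlier spot of each probe, at 599 and 917, was left out. Here too the spots of the 2 probes did not overlap, and each probe lay over 60 times its local background at the median pixel, at 64.0 and 93.3 times. The total gene signal was 320 ± 23.0.

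MiR-375 gave a dimmer signal that was nonetheless even across spots. Its 20 spots ran from 99.3 to 189 with a median of 144, and the highest of all 1000 negative control spots was 45.4. The probe means were 105 ± 4.81 and 181 ± 4.35 (SD, 10 spots each), at 10.7 and 17.0 times the local background. The total gene signal was 52.2 ± 3.88. The array listed no miR-375-5p, so the other arm of this hairpin was not read.

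MiR-7-2-3p was read by 4 probes of 5 spots each, and its spots ran from -2.63 to 4.82 with a median of -0.93. The signal was under 0 for 11 of the 20 spots. The negative control spots were centred on 0.0894 (median), 95% of them lay under 4.79, and 50 of the 1000 exceeded the highest miR-7-2-3p spot. The means of the first 3 probes were -1.21 ± 1.56, -0.53 ± 2.07 and -1.31 ± 1.47 (SD, 5 spots each). The mean of the remaining probe was higher, 2.93 ± 1.99 (SD, 5 spots), with a summed probe signal of 1.11 times its error. For detected miRNAs that multiple, taken at the best probe, was 3.00 or more, and for undetected ones 2.99 or less. For any of these probes 3 times the error was at most 0.722 on the scale of the total gene signal. This limit holds for a single probe, so a miR-7-2-3p signal summed over the 4 probes could exceed it and still go undetected.

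**Figure D1:**
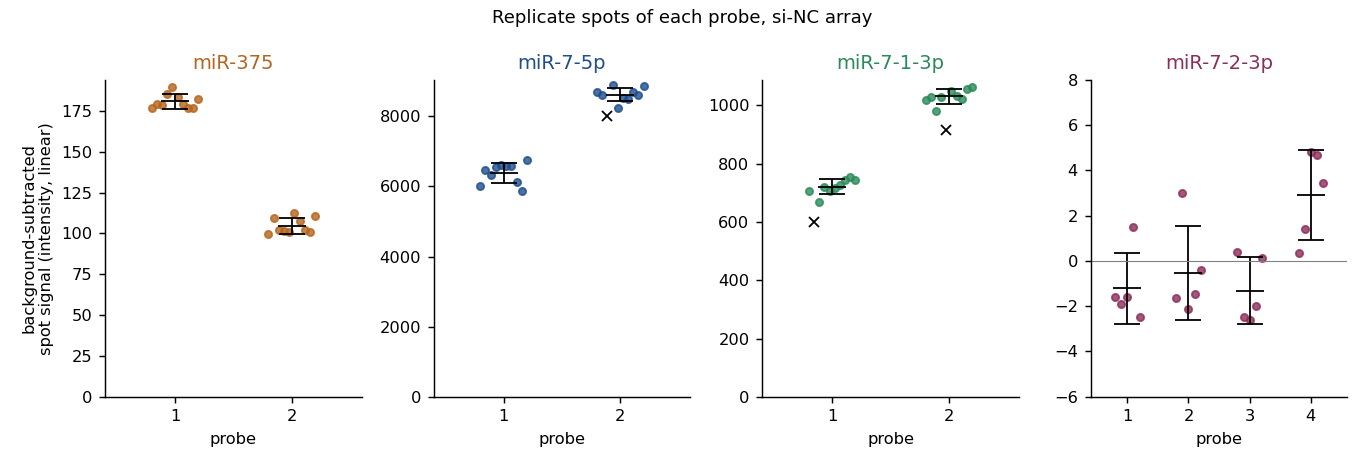
Background-subtracted spot signal (intensity, linear axis) of each replicate spot, by probe, for miR-375, miR-7-5p, miR-7-1-3p and miR-7-2-3p on the si-NC array, with bars for the mean ± SD and crosses for outlier spots left out of them. The axes differ between panels: the 20 spots of miR-7-5p lie between 5884 and 8894, and those of miR-7-2-3p scatter about 0, from -2.63 to 4.82.

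On the same array the probes for miR-7-1-3p gave means of 721 and 1031, and those for miR-7-2-3p, which differs from it at 4 bases, had 0 of 20 spots well above background. How strongly each probe binds either RNA was not measured, and binding of other RNA to the miR-7-1-3p probes was not tested. The stretch of MIR7-3 has 5 differences from miR-7-1-3p, and no probe was made for it.

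The nearest other sequences on the array were examined by edit distance, the number of bases to change, insert or delete. For miR-7-5p these were miR-3529-5p at a distance of 5, which was not detected, and let-7b-5p at 8, detected at 2903 ± 206. For miR-7-1-3p they were miR-7-2-3p at 4 and miR-3529-3p at 7, and neither was detected. MiR-7-2-3p had miR-7-1-3p at 4 and miR-3529-3p at 8. For miR-375 the nearest were miR-2113 at 8, not detected, and miR-1295a at 9, detected at 14.3 ± 1.24. No other matched sequence on the array lay within 3 differences of any of the 4.

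Hairpins within 10 kb were looked up next, because neighbouring hairpins can be cut from a shared transcript. MIR7-2 had MIR1179 at 3.63 kb on the same strand and MIR3529 on the opposite strand of its own position. Of these, only MIR1179 lies on the strand that could give a transcript shared with MIR7-2. MIR375, MIR7-1 and MIR7-3 had no such neighbour. Of the 3 mature miRNAs from these neighbours, 0 were called detected, against 44.4% of all miRNAs. The 20 spots of miR-1179 ran from -4.73 to 3.86 with a median of -1.19, and the software placed 0 of them well above background. The spots of miR-3529-5p ran from -4.31 to 2.55 with a median of -1.71, again with 0 well above background. For miR-3529-3p they ran from -2.90 to 17.6 with a median of -1.03, and 1 spot was well above background. Of the spots of miR-7-2-3p and the 3 neighbours, only that highest spot of miR-3529-3p lay past the 99th percentile of the negative control spots, 16.1, and it was under their highest value of 45.4.

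**Figure D2:**
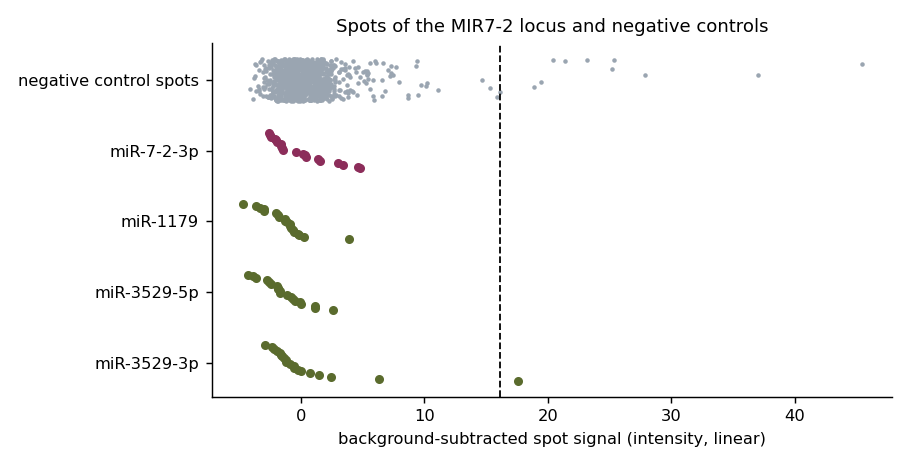
Background-subtracted spot signal (intensity, linear axis) of the 1000 negative control spots and of the 20 spots each of miR-7-2-3p, miR-1179, miR-3529-5p and miR-3529-3p, with a dashed line at the 99th percentile of the negative controls, 16.1. Vertical spread within a row has no meaning, and 1 spot of miR-3529-3p, at 17.6, lies past the line.

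On this array the locus-specific reading for miR-7 was a signal at the probes for the 3p arm of MIR7-1. At the probes for the 3p arm of MIR7-2 no spot was well above background. The same-strand neighbour miR-1179 was not detected, on an array where 44.4% of all miRNAs were. Whether it shares a transcript with MIR7-2 in these cells was not tested. This reading describes the 3p arms, and binding of other RNA, such as the MIR7-3 stretch, to the MIR7-1 probes was not tested. The share of miR-7-5p from each hairpin was not measured, since a 3p arm can be lost after cutting to a different extent at each locus and MIR7-3 had no 3p probe.

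How often such a reading occurs was counted over all families built like miR-7, with 2 arms on the array whose names carry a locus number. The array had 17 such families, and in 14 of them the shared arm was detected, miR-7 among them. In these 14 families 17 of 28 numbered arms were detected (60.7%). All numbered arms were detected in 5 families, exactly 1 in 7 families and none in 2 families, so miR-7 was 1 of 7 with a single detected arm. These counts depend on the detection rule. Of the same 28 arms, 14 were called with 50% of the spots of 1 probe over background, 12 with the negative control percentile and 9 with each probe over background. Under these rules the shared arm was called in 13 families, all numbered arms were called in 2, 1 and 0 of them, 1 arm in 8, 9 and 8, and none in 3, 3 and 5. MiR-7 had a single called arm under each rule. The numbered arm of the other families that was detected was miR-125b-2-3p at 16.9 ± 1.38, miR-19b-1-5p at 62.9 ± 4.10, miR-24-1-5p at 7.69 ± 0.903, miR-29b-1-5p at 379 ± 19.5 and miR-30c-1-3p at 1.08 ± 0.264. The seventh family was miR-92a, which is named because its values were seen, with miR-92a-1-5p at 7.61 ± 0.618. Outside these 14 families, miR-138 and miR-218 also had 1 detected arm each, miR-138-2-3p at 103 ± 5.54 and miR-218-2-3p at 0.893 ± 0.282, with no detected shared arm.

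The evenness of the miR-7 reading could be set against the same families. MiR-7-1-3p had all spots well above background, which held for 7 of the 17 detected numbered arms. It also stayed called where each probe needed 50% of its spots over background, as 9 of the 17 did. On the other side, miR-7-2-3p had 0 spots well above background, as did 9 of the 11 undetected numbered arms. For hairpins with both arms named and not numbered by locus, both arms were detected in 28.6% of 810 pairs, and in 85.4% of the 41 pairs whose brighter arm had a signal of 1000 or over, the class in which miR-7-5p lies. Since miR-7-5p is encoded by several hairpins, this share need not apply to any single one of them. The pairs were counted only once the values were known.

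**Figure D3:**
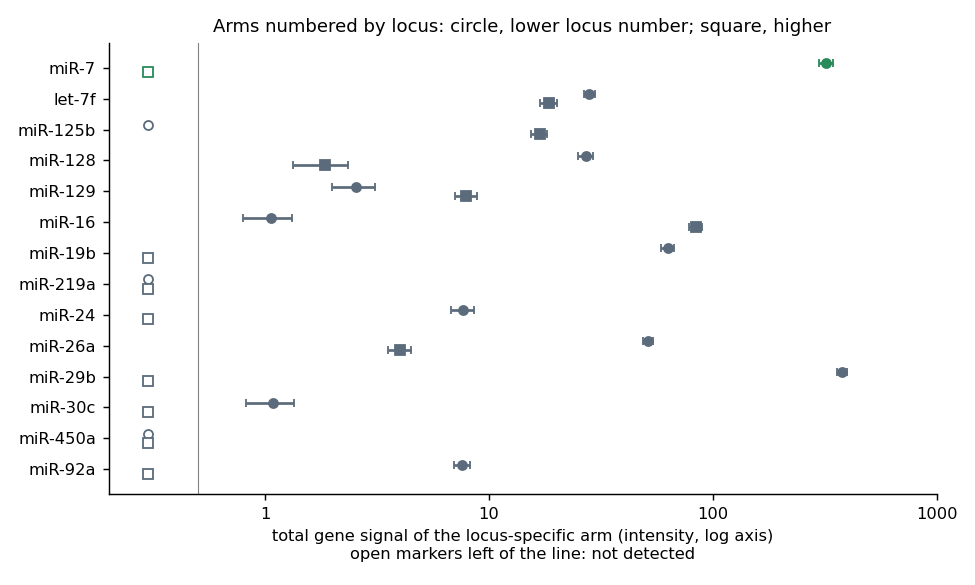
Total gene signal (intensity, log axis) of the numbered arms in the 14 families whose shared arm was detected, with the lower locus number as a circle and the higher as a square, bars for the error from the scanner software, and open markers left of the line for arms not detected. In the miR-7 row the MIR7-1 arm is at 320 and the MIR7-2 arm is not detected, and 6 other rows also have 1 detected arm.

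The place of each signal in the array's range was described without reading it as abundance, since probes bind with different strength. Over the 1133 detected miRNAs the median total gene signal was 12.5 and the upper quartile 52.0. MiR-7-5p was brighter than 96.6% of them, with 37 above it. MiR-7-1-3p was brighter than 90.7%, with 104 above it. MiR-375 was brighter than 75.1%, with 281 above it, so it sat at the upper quartile. The 3 signals were further apart than their errors. Expressed as log2 and set against the 75th percentile over the spots of detected miRNAs, the mean spot signal was 5.69 ± 0.05 for miR-7-5p (19 spots), 2.60 ± 0.04 for miR-7-1-3p (18 spots) and -0.05 ± 0.05 for miR-375 (20 spots). These SDs were pooled within probes, so the difference between probes, given below as log2, is not in them.

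**Figure D4:**
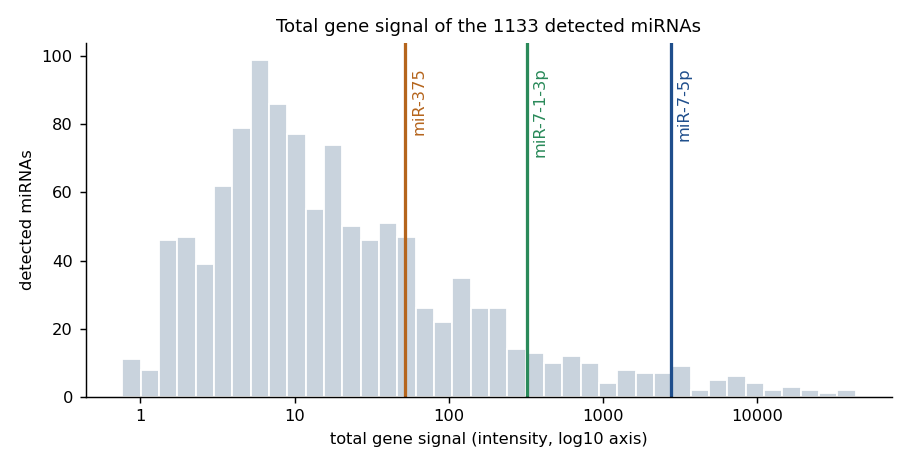
Histogram of the total gene signal (intensity, log10 axis) of the 1133 detected miRNAs on the si-NC array, with lines at miR-375 (52.2), miR-7-1-3p (320) and miR-7-5p (2746). All 3 lines lie above the median of 12.5. MiR-7-2-3p, not detected, has no line.

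The precision of these values was given by the spots and by the software, and the 2 differed. The coefficient of variation (CV) over replicate spots, pooled over the probes of a miRNA, was 3.67% for miR-375, 3.67% for miR-7-5p and 3.06% for miR-7-1-3p. By probe it ran from 2.31% to 4.599%. For the whole array, 535 probes averaging 100 to 1000 had a median CV of 5.68%, and 208 probes at 1000 and over had one of 3.76%. The error of the software was larger, 7.43%, 7.15% and 7.19% of the total gene signal in the same order, and between 10.0% and 10.3% of each probe's own signal.

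Between the 2 probes of each detected member the difference exceeded both errors. The brighter probe of miR-375 was 1.73 times the dimmer one, a difference of 0.79 ± 0.02 on the log2 scale (SE from replicate spots). For miR-7-1-3p it was 1.43 times (0.52 ± 0.02) and for miR-7-5p 1.35 times (0.43 ± 0.02). Over the 683 detected miRNAs with 2 probes well above background the median difference was 0.32, with quartiles of 0.13 and 0.72. A difference larger than that of miR-375 was seen in 21.7% of them, larger than that of miR-7-1-3p in 34.3% and larger than that of miR-7-5p in 39.5%.

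The deposited processed values, on a log2 scale, were 11.15 for miR-7-5p, 8.40 for miR-7-1-3p, 5.84 for miR-375 and 2.32 for miR-7-2-3p. The last is the lowest value in that table, log2 of 5. The deposited value minus log2 of the total gene signal was -0.27 for miR-7-5p, 0.07 for miR-7-1-3p and 0.14 for miR-375. The order of the 3 detected miRNAs was the same on both scales.

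Marker miRNAs of colon epithelium and other endocrine and neural miRNAs were read beside the 4. All 8 miRNAs of the colon epithelium list, including the miR-200 family and miR-192-5p, were detected, against 44.4% of all miRNAs. Their total gene signals ran from 319 to 9249. The lists were chosen with earlier results known, so this count does not test the cell label or tell colon from other epithelium. Of the 10 neural and neuroendocrine markers 7 were detected, against the 44.4% of all miRNAs. Their signals were 154 ± 10.9 for miR-219a-5p, 138 ± 9.78 for miR-212-3p, 22.1 ± 1.71 for miR-9-5p, 20.2 ± 1.59 for miR-132-3p, 9.002 ± 0.934 for miR-9-3p, 2.67 ± 0.548 for miR-153-3p and 2.24 ± 0.530 for miR-129-5p. For miR-153-3p 8 of 20 spots were well above background, and for miR-129-5p it was 3 of 20. The brain miRNAs miR-124-3p and miR-137, and miR-218-5p, were not detected, with 0 of 20 spots each.

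Of the 5 pancreas markers 1 was detected, miR-204-5p at 5.24 ± 0.774 with 13 of 20 spots well above background, and it was not called under the rule on the negative control percentile. The share of all miRNAs detected was 44.4%, and that under the negative control rule 31%. The islet miRNA miR-184 and the acinar miRNAs miR-216a-5p, miR-216b-5p and miR-217 were not detected, each with 0 of 20 spots well above background. Against the same 44.4%, markers of other cells were 3 of 4 detected for blood (miR-142-3p, miR-223-3p and miR-451a, at 695 ± 50.05, 25.4 ± 1.97 and 21.5 ± 1.67) and 1 of 5 for stroma and vessel (miR-126-3p at 123 ± 8.75). The part of other cells or of serum RNA in any signal of miR-375 or miR-7 was not tested.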

How the data were processed

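Levels of miRNA were read on 1 single-colour Agilent array of si-NC DLD-1 cells. Per the file headers, Feature Extraction 11.0.1.1 gave the intensity, on a design of the hg19 build. The deposited scanner file holds background-subtracted spot intensity, not normalized between arrays, and flags (other values) for detection, outliers and spots well above background. The labels give Cyanine 3-pCp as the dye put on the RNA, while the study's methods describe labelled cDNA. The authors also deposited log2 values, quantile normalized, with 2570 rows and a floor whose origin is not stated.

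Members were non-control spots with 1 of the 4 names. The members, marker lists and families were chosen with earlier results of these data known. Outlier spots were left out of means, SDs and log2 values. Total gene signals and their errors are those of the software. Families were names numbered by locus with 2 hairpins on the array. The miRNAs named are the members, the same-seed and 2 nearest sequences, neighbours within 10 kb, up to 8 families with 1 detected arm, detected non-colon markers and undetected colon markers. The undetected non-colon markers, the miR-200 family, miR-192-5p and miR-92a fall outside that rule and were named after their values were seen. Sequences came from RefSeq (GRCh38.p14), with 2249 of 2549 names matched (88.2%). Python 3.11.15, numpy 2.4.6, pandas 2.3.3, matplotlib 3.10.9, R 4.3.3 and limma 3.58.1 (normexp, offset 50) were used. The calculations of the spot CV and of the log2 probe difference were tested on simulated data. The alternatives were 5 detection rules, normexp, outlier spots kept, another scaling, the deposited values and no filter on dim probes. The single array limits the precision.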

Additional observations from a re-analysis of the deposited data

How the results depend on the processing

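Over 21 results 90 alternative values were computed, and 75 stayed within their limits (1.5 times for counts, 1 SD over replicate spots for log2 values and probe differences, 1 approximate standard deviation of a CV for CVs). The 3 members detected stayed 3, the same 3, under all 5 other detection rules. Of these, asking for a signal over 3 times its error or for a deposited value over the floor follows from how the software sets undetected miRNAs, and says nothing about stability. Families with every numbered arm called moved from 5 to 2 with at least 50% of the spots of 1 probe above background, to 1 with the negative control percentile and to 0 with every probe. Families with no such arm called moved from 2 to 5 with every probe, and pancreas markers from 1 to 0 with the negative control percentile. These rules call fewer miRNAs in all (967, 790 and 749 of 2549). The log2 signal moved to 2.39, 8.13 and 5.04 for miR-375, miR-7-5p and miR-7-1-3p with the percentile over all miRNA spots, because the reference signal fell from 142.6 to 26.3. With normexp it moved to 5.20 for miR-7-5p and 2.20 for miR-7-1-3p, and with deposited values to 5.32 for miR-7-5p and 0.017 for miR-375. For miR-375, normexp, whose offset is added to every spot, moved the CV from 3.67% to 2.70% and the probe difference from 0.79 to 0.56. For miR-7-1-3p the CV moved to 5.44% with outlier spots kept. The filter on dim probes could not change the members, since all their detected probes passed it. No paired analysis was possible because there is 1 array. Signal over background limits miR-7-2-3p.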
